A study of Mus musculus with 73 samples.

Results

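The vacuolar ATPase and lysosomal protease genes were described in 73 single cells picked by hand from the mouse cochlea at postnatal day 14 (P14). Members were all rows of the count table whose symbol starts with Atp6v0, Atp6v1 or Atp6ap, is Cts followed by 1 letter, or is Lamp followed by 1 number, with pseudogenes and symbols ending in "os" left out. This gave 48 genes of 55291 gene rows: 13 genes of the V1 sector, 9 of the V0 sector, 3 accessory genes, 18 cathepsins, 4 Lamp genes and Atp6v1fnb, which is named for its neighbour Atp6v1f and is not a pump subunit.

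All cells belong to 1 group, labelled Casz1-null inner hair cells, Casz1 being a zinc finger transcription factor. The mice carried Atoh1Cre/+ and Casz1flox/flox, and as reporters a Cre-dependent Ai47 (3xGFP) allele and a Flp-dependent Frt-stop-Frt-tdTomato allele at Rosa26, with Fgf8-Flpo/+. Atoh1Cre acts in hair cells and other cells of the Atoh1 lineage, Fgf8-Flpo marks inner hair cells, and cells with both fluorescent proteins were picked. Wild-type cells were not analysed here, and no animal is named in the labels. The cells therefore count as 1 sample, no test between groups was possible and spreads over cells are not replicate errors.

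The vacuolar ATPase (V-ATPase) is a rotary proton pump. Its cytosolic V1 sector hydrolyses ATP and its membrane V0 sector carries protons, which acidifies lysosomes, endosomes and synaptic vesicles. Cathepsins are proteases of the acidic lysosome, and Lamp1 and Lamp2 are abundant glycoproteins of its membrane. In inner hair cells the pump powers the loading of synaptic vesicles with glutamate through the transporter encoded by Slc17a8 (Vglut3). Slc26a5 encodes prestin, the membrane motor of outer hair cells.

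Total counts per cell ranged from 11027945 to 37183702 with a median of 17333640, and levels are given in CPM, the count scaled to that total. Of 12 listed hair cell genes, 8 were at 10 CPM or more, the level called detected, in all 73 cells. These were Myo7a, Myo6, Pou4f3, Tmc1, Cib2, Otof, Slc17a8 and Calb2. Gfi1 was detected in 69 cells, Ocm in 68, Slc26a5 in 51 and Ikzf2 in 6. Ocm ranged from 0 to 17081 CPM (median 2112), and Ikzf2 had a median of 0 and a highest level of 67.6 CPM. Slc26a5 ranged from 0 to 1229 CPM (median 73.1) and Slc17a8 from 436 to 2992 CPM (median 1346). Casz1 itself had a median of 42.1 CPM (0 to 283). The excised exons are not given in the sources used here, so these reads do not check the deletion. In 22 cells a marker of another cell type that is rare among the cells reached 50 CPM. In 1 of them, cell 5, 4 B cell markers summed to 7269 CPM, and correlations and isoform shares were recomputed without these 22 cells. Commoner markers such as Sox10, Cnp and C1qb did not count as rare, so some of the other cells also held markers of other cell types.

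Of the 48 members, 10 were at 10 CPM or more in all 73 cells, where 1.13% of all gene rows and 7.25% of the 8619 genes averaging 10 CPM or more were. At least 37 cells passed 10 CPM for 24 members (8.87% of gene rows), and 9 members had no count in any cell (50.3% of gene rows). A cell held 20 to 26 detected members, with a median of 23. The summed level of the pump genes had a median of 7051 CPM (4065 to 9078) and that of the cathepsin and Lamp genes 1452 CPM (346 to 2485).

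In the V1 sector, 6 of 13 genes were detected in every cell. Atp6v1a encodes the catalytic subunit A and ranged from 25.3 CPM through a median of 335 to 899 CPM. Atp6v1b2, for the partner subunit B that forms the ATP-hydrolysing head with A, had 36.3, 390 and 1050 CPM as lowest, median and highest values. The rotor subunits D and F turn inside that head. Atp6v1d stood at 37.3, 378 and 965 CPM, and Atp6v1f at 78.7, 298 and 704 CPM. Subunits E and G form the peripheral stalks that hold the head still. Atp6v1e1 ranged from 45.2 through 297 to 811 CPM, and Atp6v1g1 from 211 through 866 to 1736 CPM. Atp6v1h, for the regulatory subunit H, was less regular over cells: its lowest level was 0, its median 127 and its highest 456 CPM, and 63 cells passed 10 CPM.

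In the V0 sector, 3 of 9 genes were detected in every cell. Atp6v0e, for the small membrane subunit e, had 755 CPM in the lowest cell, a median of 1977 and 3638 CPM in the highest cell, a ratio of 4.82 between the extremes. It made up a median of 28.4% of the summed pump counts, a share not divided by length. Subunits c and c'' build the ring that carries protons. Atp6v0c, for subunit c, had 113, 454 and 875 CPM, and its pseudogene Atp6v0c-ps2, left out by the rule, passed 10 CPM in 11 cells with a highest level of 41.1 CPM. Atp6v0b, for c'', had 92.2, 406 and 794 CPM. Atp6v0a1, for the large subunit a beside the ring, had 1.89, 194 and 476 CPM, and Atp6v0d1, for the subunit d that couples ring and rotor, 3.54, 112 and 319 CPM. These genes passed 10 CPM in 72 and 71 cells.

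Atp6ap1 and Atp6ap2 encode membrane proteins that take part in pump assembly. Atp6ap1 ranged from 2.99 through 298 to 874 CPM and was detected in 72 cells. Atp6ap2, also known as the prorenin receptor, ranged from 0 through 221 to 759 CPM and was detected in 67 cells. The third accessory gene, Atp6ap1l, did not exceed 1.73 CPM.

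Compared per kilobase of annotated exon, the scale on which genes were ordered, Atp6v1g1 was highest with a median of 763 CPM per kb, and quartiles of 571 and 1029. Atp6v0e followed at 533 (443 to 632), Atp6v1f at 281 (205 to 376), Atp6v0b at 198 (163 to 256) and Atp6v0c at 134 (110 to 166). The quartile ranges of neighbours in this order overlap except between Atp6v0e and Atp6v1f. By the longest transcript instead of all exon bases, a choice added after the data were seen, Atp6v0b (406) stood above Atp6v1f (370). The median then moved by over 1.5 times for 6 of 25 members, Atp6v0b, Atp6v0a1, Atp6v1b2, Atp6v1h, Ctsf (105) and Lamp2 (116). By all exon bases, at the other end of the pump genes stood Atp6v1h at 13.1, Atp6v1c2 at 5.28 and Atp6v0a2 at 0.359 CPM per kb.

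**Figure D1:**
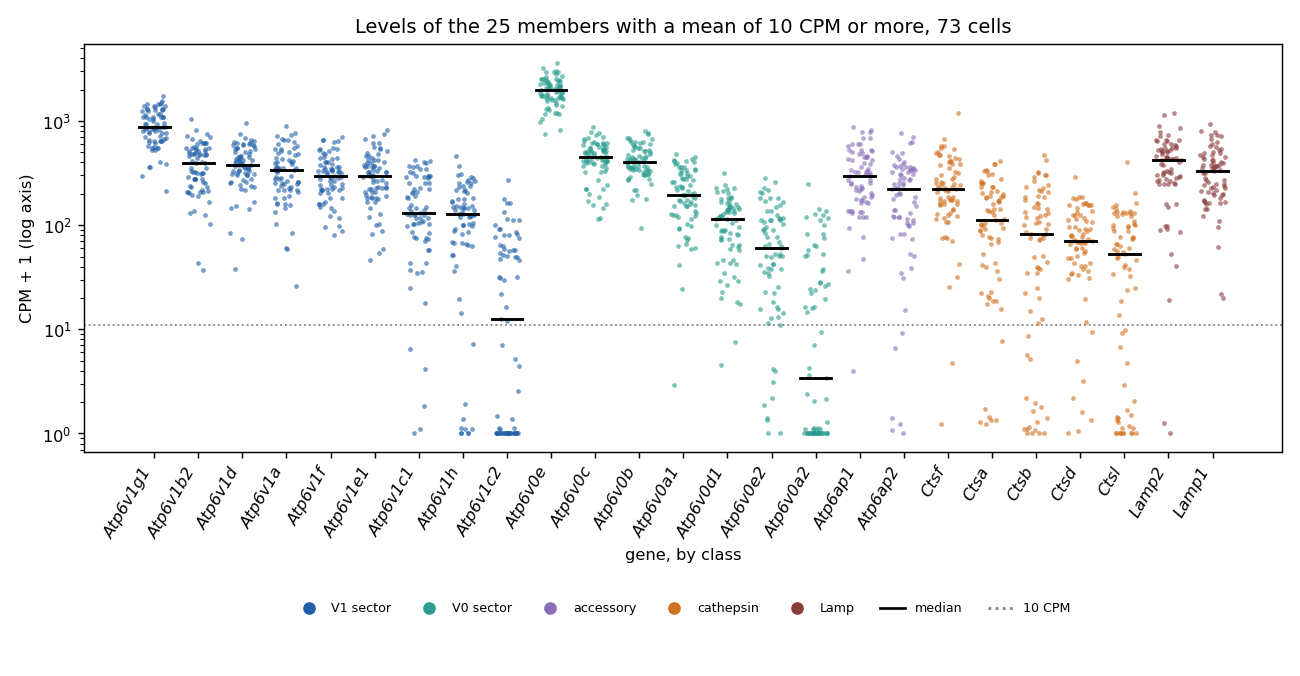
Level of the 25 members averaging 10 CPM or more in each of 73 cells, as CPM + 1 on a log axis, 1 point per cell, with the median as a bar, the class as colour and 10 CPM as a dotted line. On this scale, which is not divided by length, Atp6v0e sits highest, with all cells between 755 and 3638 CPM, while Atp6v1c2 and Atp6v0a2 have many cells at 0.

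Among the cathepsins, 5 of 18 had a mean of 10 CPM or more and none was detected in all cells. Ctsf, a papain-like cysteine protease, was detected in 71 cells and had 0.229, 220 and 1180 CPM as lowest, median and highest values. Its highest value, in cell 3, stood above the next at 668 CPM. Ctsa, a serine carboxypeptidase that also protects neuraminidase, was detected in 66 cells with a median of 111 CPM and a highest value of 409. Ctsd, the main aspartic protease of the lysosome, was detected in 65 cells with a median of 69.2 CPM and a highest value of 287. The cysteine proteases Ctsb and Ctsl were patchier. Ctsb ranged from 0 through 81.1 to 474 CPM, and 56 cells passed 10 CPM (76.7%, exact Clopper-Pearson 95% interval 65.4 to 85.8%, counting error only). Ctsl ranged from 0 through 52.4 to 405 CPM and passed 10 CPM in 49 cells (67.1%, 55.1 to 77.7%). Per kilobase, the medians of these 5 genes ran from 43.6 CPM per kb for Ctsf over 29.4 for Ctsd, 23.6 for Ctsa and 13.4 for Ctsb to 8.07 for Ctsl. Of the exon bases of Ctsd, 34.4% are shared with Gm49369 on the same strand. Of those of Ctsl, 26.8% overlap Gm47123 on the other strand and 6.09% Gm49230 on the same strand. These partners had a median of 0 CPM. Whether reads on shared bases were lost to the levels of Ctsd and Ctsl was not tested.

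Both main membrane glycoproteins were near universal. Lamp1 ranged from 18.8 through 334 to 927 CPM and was detected in all 73 cells. Lamp2 ranged from 0 through 420 to 1187 CPM and was detected in 71 cells. Per kilobase of all exon bases Lamp1 was the higher of the pair, with medians of 125 and 43.9 CPM per kb. By the longest transcript the medians were closer, at 150 and 116. Counting is not stated to use strand, and 9.31% of the exon bases of Lamp1 overlap Grtp1 on the other strand (median 102 CPM), as 12.8% of those of Ctsb overlap Fdft1 (median 184 CPM). How many of their reads came from the partner was not tested.

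The remaining members were rare or absent. They include cathepsins better known from immune cells (Ctss) and osteoclasts (Ctsk). Ctsc was detected in 4 cells (highest 150 CPM), Ctss in 3 (134), Ctsz in 7 (99.5), Ctsh in 7 (58.3) and Ctsk in 5 (45.1). Ctso passed 10 CPM in 1 cell with 25.6 CPM. The highest Ctss was in cell 5, whose 10 immune markers summed to 123 CPM, and the highest Ctsc was in cell 56, whose immune sum of 307 CPM was almost all C1qb, with C1qa and C1qc below 10 CPM in every cell. The highest Ctsl value was in cell 67, which also had the largest sum of supporting cell markers, 1167 CPM. Over all cells the immune sum ranged from 0 to 307 CPM, and 8 of the 10 immune markers, Csf1r, Cx3cr1, Tyrobp and Aif1 among them, passed 10 CPM in no cell. The cells with a rare marker, 22 of all 73, held 5 of 7 cells with Ctsh, 2 of 3 with Ctss, 3 of 7 with Ctsz, 1 of 4 with Ctsc, 0 of 5 with Ctsk and 0 of 1 with Ctso. Commoner markers such as C1qb (detected in 22 cells), Sox10 (27) and Cnp (29) did not count here. In the cell with the highest Ctsk the glia markers summed to 202 CPM, and in the cell with the highest Ctso to 155 CPM. The part of such RNA in these levels was not tested.

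Of the pump genes, Atp6v1g2 was detected in 7 cells (highest 128 CPM) and Atp6v0a4 in 2 cells (20.5 CPM). Atp6v1fnb was detected in 1 cell (27.2 CPM), and 24.6% of its exon bases overlap Kcp on the other strand. Below 10 CPM in every cell stayed Lamp5 (highest 0.317 CPM), Lamp3 (0.134), Ctse (0.0962) and Ctsw (0.0705). No count at all was listed for Atp6v0d2, Atp6v1b1, Atp6v1e2, Atp6v1g3, Ctsg, Ctsj, Ctsm, Ctsq and Ctsr, and 0 of 73 cells allows a share of cells with a count of up to 4.11% by the rule of 3 counts. Atp6v1b1, which is mutated in a renal tubular acidosis with deafness, is thus among the genes with no count.

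Where a pump subunit has several genes, the share of each gene was computed per kilobase of exon in every cell. For 5 of the 7 such subunits 1 gene was highest in all 73 cells. Atp6v1b2, Atp6v1e1 and Atp6v0d1 each made up 100.0% of subunits B, E and d in every cell. Atp6v1g1 made up a median of 100.0% of subunit G, with 91.7% in the lowest cell. Atp6v0e made up a median of 95.7% of subunit e (80.3 to 100.0%), although Atp6v0e2 was itself detected in 64 cells, with a median of 59.5 and a highest level of 285 CPM.

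Subunit a, whose isoforms direct the pump to different membranes, was led by Atp6v0a1 in 67 of 73 cells, with a median share of 89.3% (5.57 to 100.0%). Atp6v0a2 led in 3 cells and Tcirg1, the a3 gene of osteoclast lysosomes, in 3. Atp6v0a2 ranged from 0 through 2.42 to 245 CPM and was detected in 32 cells (43.8%, 32.2 to 55.9%), each of which also had Atp6v0a1 at 10 CPM or more. Tcirg1, which does not carry the Atp6 symbol and is no member, was detected in 19 cells with a highest level of 185 CPM.

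In subunit C the lead was more evenly split than in subunit a. Atp6v1c1, the widely expressed isoform, ranged from 0 through 131 to 419 CPM and was detected in 68 cells. Atp6v1c2, better known from kidney, lung and epithelia, ranged from 0 through 11.5 to 269 CPM and was detected in 38 cells (52.1%, 40.04 to 63.9%). Both were detected in 34 cells, Atp6v1c1 alone in 34, Atp6v1c2 alone in 4 and neither in 1. Per kilobase, Atp6v1c1 was the higher in 45 of the 72 cells with a count of either gene and Atp6v1c2 in 27, and the median share of Atp6v1c1 was 68.5% with an SD over cells of 33.8 percentage points. Without the 22 cells with a rare marker that share was 94.6%, with Atp6v1c1 higher in 30 and Atp6v1c2 in 20 of 50 cells. With no division by length it was 84.9%, and Atp6v1c2 was then higher in 12 cells. The rank correlation of both genes over 73 cells was -0.13. Of the exon bases of Atp6v1c2, 2.30% overlap Pdia6 on the other strand, whose median was 188 CPM, and its part in the reads was not tested.

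**Figure D2:**
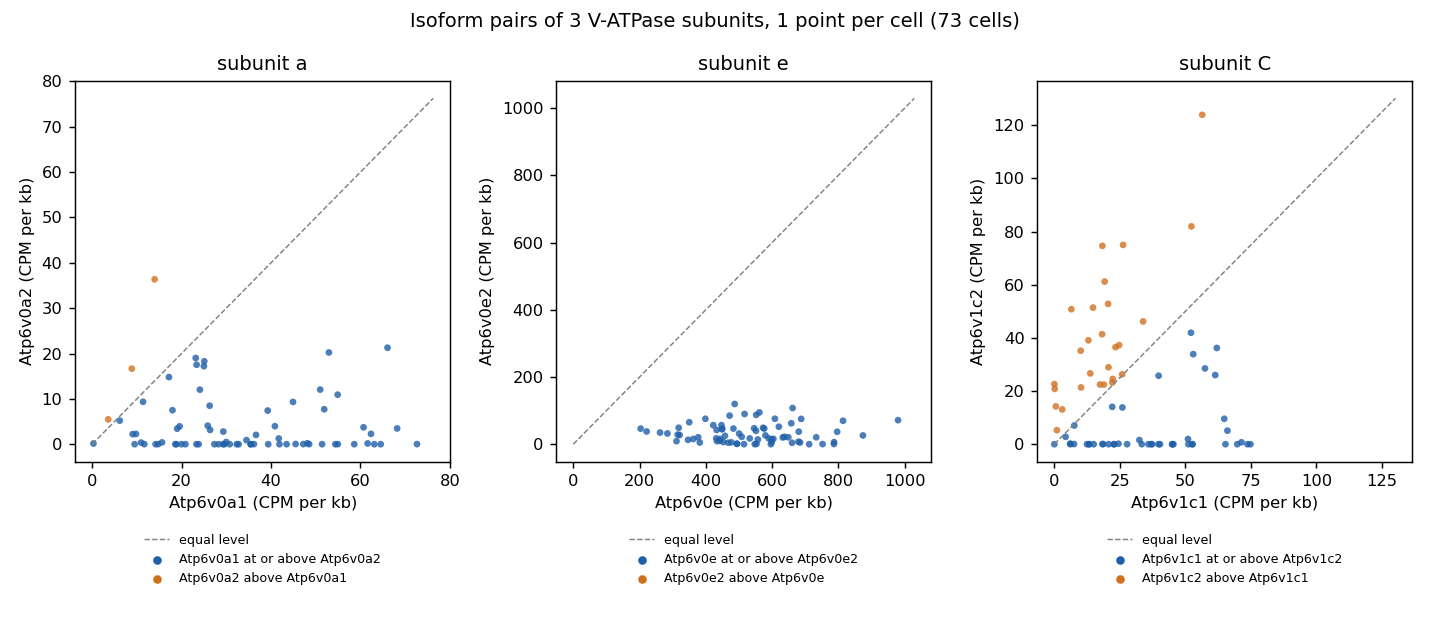
Paired isoform levels in CPM per kb, 1 point per cell, for subunit a (Atp6v0a1 and Atp6v0a2), subunit e (Atp6v0e and Atp6v0e2) and subunit C (Atp6v1c1 and Atp6v1c2), with equal levels as a dashed line and cells in which the gene on the vertical axis was higher in orange. In subunit e every cell lies far below the line, while in subunit C 27 cells lie above it.

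The sequence before the start sites was searched for the E-box CACGTG and its longer form TCACGTGA, the core of the element that the factors Tfeb and Tfe3 are known to bind at lysosomal genes. Both motifs read the same on either strand, and the longer one contains the shorter. In the 250 bases before the RefSeq starts (GRCm38.p6, 37 of 48 members matched) CACGTG was found in 7 of the 19 matched members averaging 10 CPM or more and in 0 of the 18 lower ones. It was in 6.86% of all 27025 genes with a window of this length and in 10.5% of the 6812 matched genes with such a mean. No share was computed for lower genes alone, so the 0 of 18 is not read as a difference. TCACGTGA was found in 3 of those 19 members, in 0.907% of all 27025 genes and in 2.07% of the 6812 genes. Atp6v1b2, Atp6v1c1, Atp6v1g1, Atp6v1h, Atp6v0a2 and Ctsb had no entry. The stretches that hold the motif are shown for the 7 members, with CACGTG in capitals, read 5′ to 3′ on the strand of the gene.
Atp6v0b: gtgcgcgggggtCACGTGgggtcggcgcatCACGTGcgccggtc
Atp6v1a: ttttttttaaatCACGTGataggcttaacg
Ctsa: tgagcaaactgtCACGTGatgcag
Ctsd: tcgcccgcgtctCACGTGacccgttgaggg
Ctsf: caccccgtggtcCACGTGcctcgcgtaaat
Ctsl: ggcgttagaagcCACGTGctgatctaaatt
Lamp1: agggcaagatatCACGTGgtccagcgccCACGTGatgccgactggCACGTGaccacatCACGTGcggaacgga

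These stretches lie at chr4:117887334-117887377, minus strand (Atp6v0b), chr16:44139373-44139402, minus strand (Atp6v1a), chr2:164833749-164833772, plus strand (Ctsa), chr7:142387908-142387937, minus strand (Ctsd), chr19:4855074-4855103, plus strand (Ctsf), chr13:64370739-64370768, minus strand (Ctsl) and chr8:13159088-13159160, plus strand (Lamp1). Lamp1 holds 4 copies, which begin 61, 45, 28 and 15 bases before its start, and Atp6v0b holds 2, at 36 and 18 bases. The longer form is in Atp6v1a, where its CACGTG begins 131 bases before the start, in Ctsd at 98 and in Ctsa at 12. Ctsa has a further RefSeq start upstream, and the motif stands before the downstream one. The window before the upstream start has no CACGTG. Ctsd has a further CACGTG at 245 bases, outside the stretch shown. The stretches of Ctsa and Ctsd lie inside annotated exons of longer transcripts, as do 15 of the 30 bases of Ctsl. The members with the highest and lowest rank correlation with Slc26a5 below, Atp6v0e and Lamp2, have no CACGTG in the window, and the longest run of each window that no exon covers is shown, 55 of 250 bases for Atp6v0e and all 250 for Lamp2.
Atp6v0e: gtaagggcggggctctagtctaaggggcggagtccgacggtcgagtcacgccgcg
Lamp2: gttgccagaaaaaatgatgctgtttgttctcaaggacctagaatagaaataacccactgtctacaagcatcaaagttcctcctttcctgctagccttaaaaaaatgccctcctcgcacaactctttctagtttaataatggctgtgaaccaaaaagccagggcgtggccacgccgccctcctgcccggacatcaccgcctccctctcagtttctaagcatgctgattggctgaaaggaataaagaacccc

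They lie at chr17:26676315-26676369, plus strand and chrX:38456461-38456710, minus strand. A match is a description of letters and not of binding. Of the factors, Tfeb was at 10 CPM or more in 11 cells, Tfe3 in 38 and their relative Mitf in 5.

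The levels were next set against Slc26a5 and Slc17a8 over the 73 cells by Spearman rank correlation of CPM, for the 25 members averaging 10 CPM or more. These values are descriptions: cells share an unknown number of animals, every gene of a cell shares its library and total, and no p was computed. Slc26a5 and Slc17a8 had a rank correlation of -0.32 with each other, so values against one and the other are not separate. Slc26a5 had a rank correlation of -0.49 with the mitochondrial share of counts and 0.67 with the share of ribosomal protein genes, and Slc17a8 had 0.41 and -0.28.

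With Slc26a5, 12 members had a positive and 13 a negative value, and 43.3% of all 8618 genes tested were positive. The median was -0.01 over members and -0.03 over all genes. A value of 0.3 or more was found for 3 members, where 6.17% of all genes passed, and -0.3 or less for 4, where 6.80% did. By class the median was -0.12 for 9 V1 genes, 0.06 for 7 V0 genes and 0.12 for 5 cathepsins. Every class had members on both sides of 0, and the values farthest out belong to single genes.

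Atp6v0e (chr17:26663231-26699647, plus strand) had the highest value, 0.59, which is the 57th highest of 8618 genes. In its lowest cell, with 755 CPM, Slc26a5 was at 5.10 CPM, and in its highest cell, with 3638 CPM, at 355 CPM. The cell with the most Slc26a5, 1229 CPM, had 2126 CPM of Atp6v0e, close to the median of all cells. Atp6v0e also had a rank correlation of 0.64 with the ribosomal protein share and -0.43 with the mitochondrial share. Its correlation with Slc26a5 was 0.48 with ranks corrected for the mitochondrial share, 0.27 with ranks corrected for the ribosomal protein share, 0.56 without the 22 cells with a rare marker and 0.57 without the 2 cells farthest from the median of Slc26a5.

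Ctsb had 0.34 and Ctsa 0.33, the 393rd and 422nd highest. In the cell with the most Slc26a5, Ctsb was at 314 CPM and Ctsa at 264 CPM, both above the upper quartile of their cells. Both were below 0.3 under several settings, Ctsb to 0.24 without the cells with a rare marker and Ctsa to 0.18 with ranks corrected for the mitochondrial share.

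Lamp2 (chrX:38401357-38456454, minus strand) had the lowest value with Slc26a5, -0.47, which is the 102nd from the bottom. The cell without a count of Lamp2 had 328 CPM of Slc26a5, and the cell with the most Lamp2, 1187 CPM, had 144 CPM of Slc26a5. The value was -0.43 with ranks corrected for the mitochondrial share, -0.21 with ranks corrected for the ribosomal protein share and -0.52 without the cells with a rare marker. Lamp2 itself had a rank correlation of -0.50 with the ribosomal protein share. Lamp1, its relative in the same membrane, had 0.09.

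The other members at -0.3 or less were Atp6ap1 (-0.35), Atp6v1f (-0.34) and Atp6v1c2 (-0.32). Atp6ap1 ran from -0.36 to -0.28 over all alternatives, the narrowest of the 4 ranges. In the cell with the lowest Atp6ap1, 2.99 CPM, Slc26a5 was at 514 CPM. For Atp6v1f the range was -0.37 to -0.15 and for Atp6v1c2 -0.34 to -0.17, in both with the ribosomal protein correction nearest to 0. Corrected for the mitochondrial share, 1 member was at 0.3 or more, Atp6v0e, and 2 were at -0.3 or less, Lamp2 and Atp6ap1, where 3.61% and 4.54% of all genes then passed. Corrected for the ribosomal protein share, 0 and 0 were, and of all genes 2.29% and 2.03%. Without the 2 cells farthest from the median of Slc26a5 there were 1 and 1, Atp6v0e and Lamp2, beside 5.87% and 6.97% of all genes.

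**Figure D3:**
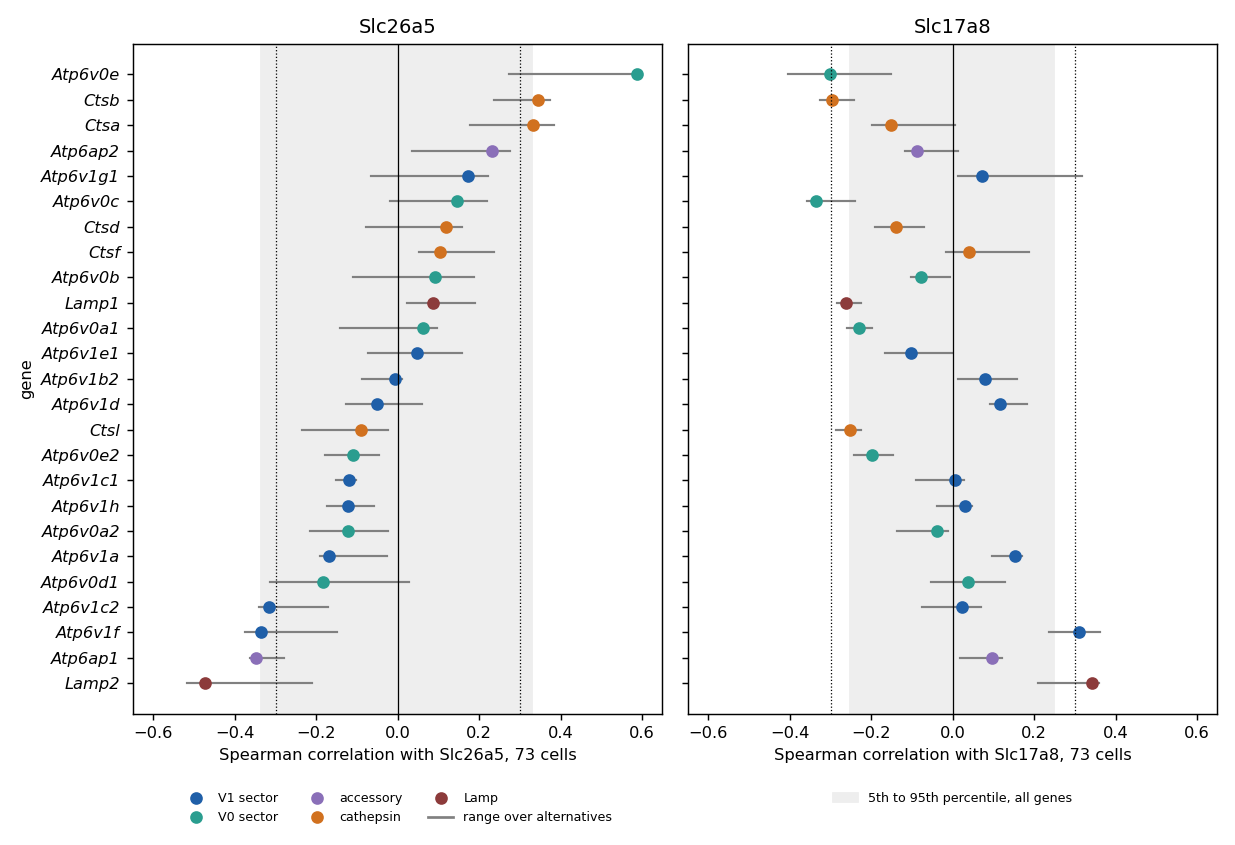
Spearman correlation over 73 cells of the 25 members with Slc26a5 (left) and Slc17a8 (right), coloured by class, with the range over all alternatives as a grey bar, the 5th to 95th percentile of all genes as a shaded band and 0.3 and -0.3 as dotted lines. Atp6v0e at 0.59 and Lamp2 at -0.47 stand farthest out on the left, and the order of genes is partly inverted on the right.

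With Slc17a8, 12 members again had a positive and 13 a negative value, beside 50.9% positive of all genes, and the median was -0.04 over members and 0.00 over all genes. At 0.3 or more stood 2 members, where 2.36% of genes passed: Lamp2 with 0.34 and Atp6v1f with 0.31. At -0.3 or less stood 2, where 2.91% passed: Atp6v0c with -0.34 and Atp6v0e with -0.30. Ctsb, at -0.296, lay just outside. The V1 genes had a median of 0.07, with 8 of 9 positive, and the V0 genes one of -0.20, with 6 of 7 negative. The V1 median rests on small values, since Atp6v1f alone of the 9 passed 0.3.

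Over the alternatives Lamp2 ran from 0.21 to 0.36 with Slc17a8, Atp6v1f from 0.24 to 0.36, Atp6v0c from -0.36 to -0.24 and Atp6v0e from -0.40 to -0.15. Corrected for the mitochondrial share, 0 members were at -0.3 or less and 1 was at 0.3 or more, beside 1.35% and 1.37% of all genes. This was Atp6v1g1, with 0.32 after and 0.07 before the correction, which itself had a rank correlation of -0.46 with the mitochondrial share.

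**Figure D4:**
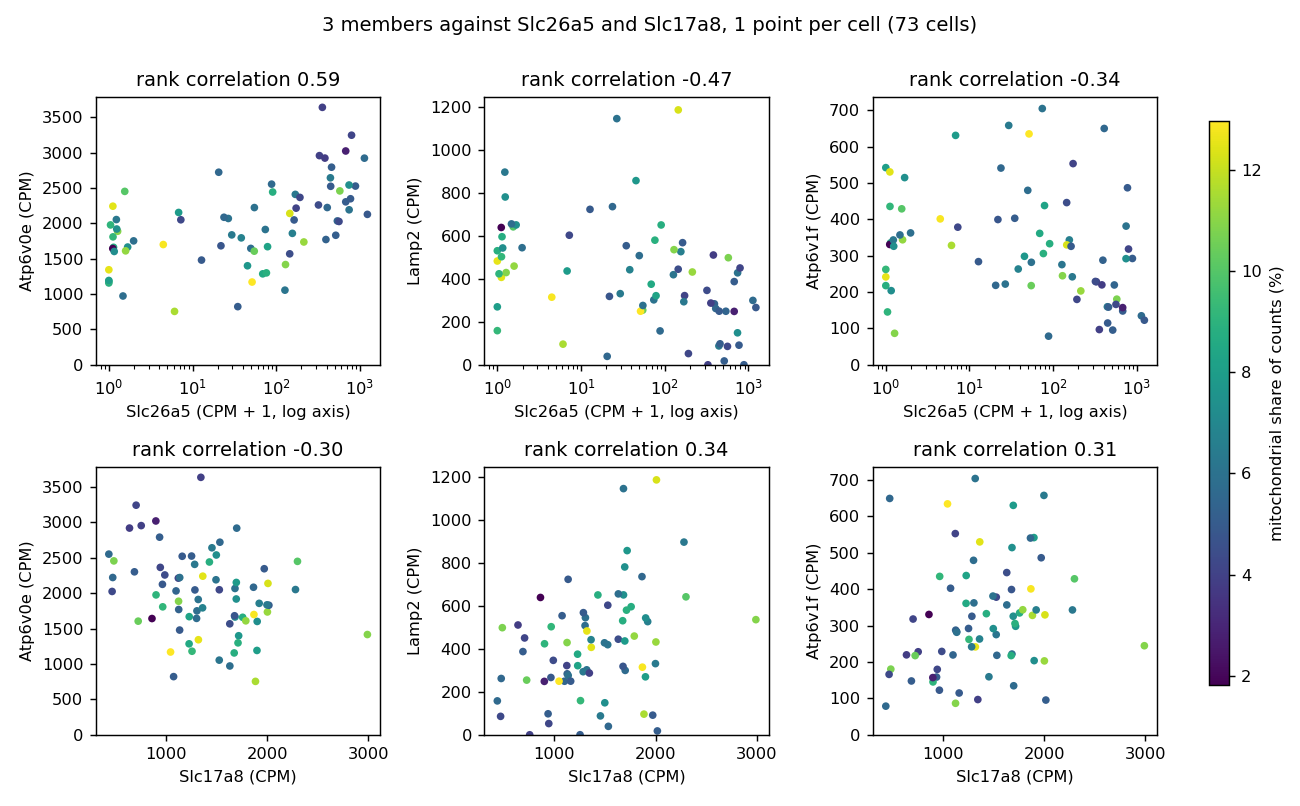
Atp6v0e, Lamp2 and Atp6v1f in CPM against Slc26a5 (CPM + 1, log axis, top) and Slc17a8 (CPM, bottom), 1 point per cell for 73 cells, coloured by the mitochondrial share of counts in percent. The rank correlations are 0.59, -0.47 and -0.34 in the top row and -0.30, 0.34 and 0.31 in the bottom row, and points at each level of Slc26a5 spread widely.

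The pump subunits work in 1 complex at fixed ratios, so the correlation of their transcripts with each other was also taken. Over the 153 pairs of 18 pump genes the median rank correlation was 0.02, beside 0.0044 over all 37139271 pairs of genes averaging 10 CPM or more. Values of 0.3 or more were found for 5 pairs (3.27%, beside 0.999% of all gene pairs) and of -0.3 or less for 2 (1.31%, beside 0.845%). The median was 0.09 over 36 V1 pairs and 0.02 over 21 V0 pairs, and it was below 0.01 in size over the 63 pairs of a V1 with a V0 gene. Cathepsin and Lamp genes had a median of 0.06 over 21 pairs, from -0.14 to 0.28, and 0.04 with pump genes over 126 pairs.

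The highest pair was Atp6v0a1 with Atp6v0c, at 0.45, both of the V0 sector. Atp6v1g1 and Ctsa followed at 0.38. The lowest were Atp6v0e with Lamp2, at -0.33, and Atp6v0e with Atp6v1f, at -0.32. The 2 accessory genes of pump assembly, which both lie on the X chromosome, had -0.28 with each other.

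**Figure D5:**
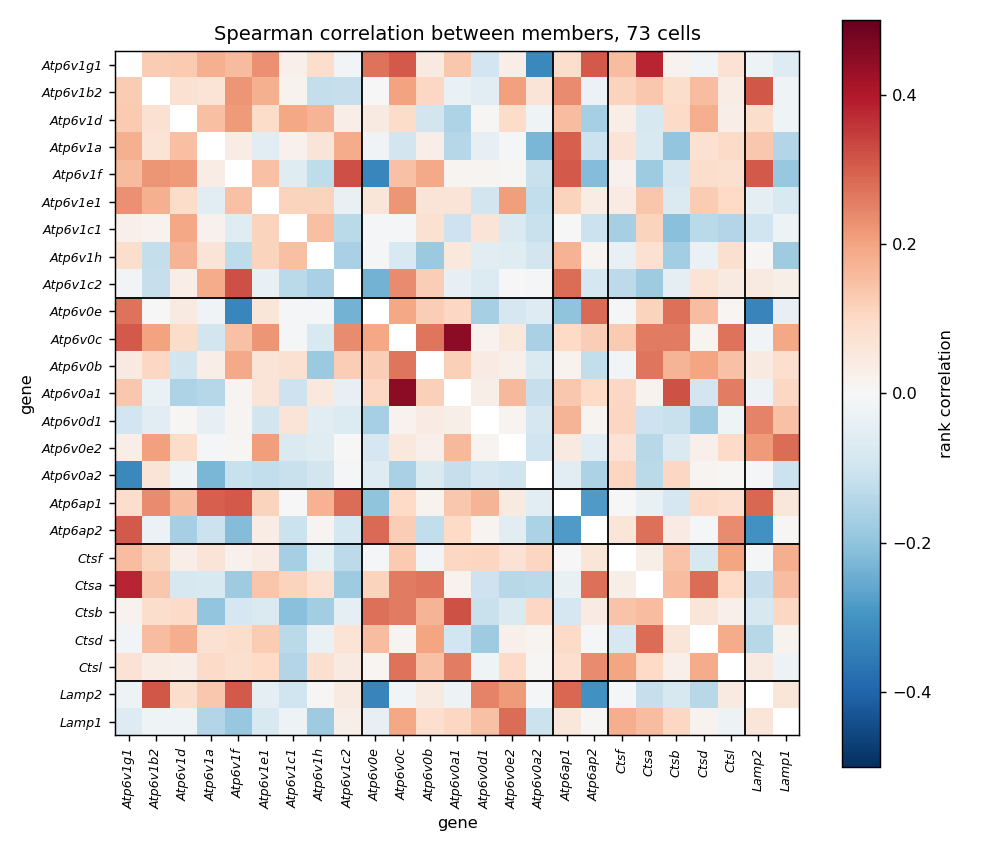
Spearman correlation over 73 cells between all pairs of the 25 members, grouped by class, as a colour scale. Most pairs are near 0, and the highest, Atp6v0a1 with Atp6v0c, is at 0.45.

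The genes most like the mean rank of the 18 pump genes were Utp18 (0.51), Gm34653 (0.49), Atf3 (0.48), Zpr1 (0.47) and Arf2 (0.44), over 73 cells. The mean rank itself had a rank correlation of 0.35 with the total count, -0.26 with the mitochondrial share, -0.10 with Slc26a5 and -0.11 with Slc17a8. The summed CPM of the pump genes had 0.24 with Slc26a5, 0.46 with the total count and -0.48 with the mitochondrial share. Atp6v0e alone made up a median of 28.4% of that sum. Of the 18 genes, 7 had a positive and 11 a negative value with Slc26a5.

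The other genes of the pathway were taken from 5 lists with 64 genes, of which 49 had a mean of 10 CPM or more. With Slc26a5, 2 of the 49 were at 0.3 or more and 6 at -0.3 or less, beside 6.17% and 6.80% of all genes, with a median of -0.06 beside -0.03. With Slc17a8, 1 and 0 were, beside 2.36% and 2.91%, with a median of -0.05 beside 0.00. Among the highest values with Slc26a5 were those of Lgmn (0.35), a protease that processes cathepsins, and Ncoa7 (0.25). The lowest were those of Cst3 (-0.47), Dmxl2 (-0.45), a rabconnectin of pump assembly, and Clcn7 (-0.41), the chloride-proton exchanger of lysosomes. With Slc17a8 the highest were Cst3 (0.36), Cst6 (0.24) and Slc17a5 (0.24), the sialic acid transporter, and the lowest Ncoa7 (-0.26), Ppt1 (-0.25) and Lgmn (-0.25). Tcirg1 had -0.21 with Slc26a5, and 0.42 with the mitochondrial share.

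Cystatins inhibit the cysteine cathepsins. Cst3, for the secreted cystatin C, ranged from 81.5 through 432 to 1043 CPM and was detected in all 73 cells, as was Cst6, from 11.6 through 306 to 1193 CPM. Cstb, the cytosolic inhibitor, had a median of 116 CPM and was detected in 69 cells, and Cst7 in 3. The rank correlations with Slc26a5 were -0.47 for Cst3, -0.31 for Cst6 and -0.17 for Cstb, while the cysteine cathepsins Ctsb, Ctsf and Ctsl had 0.34, 0.10 and -0.09.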

How the data were processed

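Per the labels, single cells were picked after enzymatic digestion, and cDNA was made with a Smart-Seq HT kit without molecular identifiers. The authors deposited counts per gene and cell, and the build mm10, featureCounts 2.0.1, StringTie 2.2.1 and HISAT2 2.2.1 are given by the submitters' processing notes, with strand settings and annotation not given in the sources used here. All 73 columns matched a sample title. The reporter row WPRE (0.0161% of counts) was kept out of totals. CPM is the count scaled to the total of the library, so 1 count is 0.0269 to 0.0907 CPM.

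Detection meant 10 CPM. Rank correlations, counted at 0.3 and -0.3, were computed for 8619 genes averaging 10 CPM or more, and no count model was used because there is 1 group. Exon lengths come from GENCODE vM21 (GRCm38, which is mm10) and promoters from RefSeq GRCm38.p6. Markers of other cell types numbered 48, of which 39 reached 10 CPM in fewer than 10 cells and are called rare. Members, lists and thresholds were chosen with earlier results of these data known. Named genes are all members averaging 10 CPM or more, the others with their highest level, the cathepsin inhibitors and Tcirg1, the 3 highest and 3 lowest genes of the other lysosomal lists by each correlation, and the 5 genes most like the pump genes; 1 gene that this rule names is not reported here. Tfeb, Tfe3, Mitf and the marker genes were named in addition. Figures used matplotlib 3.10.9 and tables pandas 2.3.3, scipy 1.17.1 and numpy 2.4.6 under Python 3.11.15, and the scripts were tested on simulated data.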

Additional observations from a re-analysis of the deposited data

How the results depend on the processing

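Apart from the levels per kilobase, 160 recomputed values stayed within their limits (counts within 1.5 times, median correlations within 0.1, isoform shares within 1 SD over cells) and 18 moved beyond them. These limits are wide. The Atp6v1c1 share stayed within them at 94.6% without the cells with a rare marker, from 68.5%, its SD being 33.8 percentage points. A median correlation near 0 could change sign and stay within 0.1, so the tally is no measure of stability. The number of members detected in all 73 cells was 5 at 50 CPM, and the number detected in no cell was 9 when 1 count sufficed. With Slc26a5, members at 0.3 or more numbered 1 after correction for the mitochondrial share, 0 after correction for the ribosomal protein share and 1 without the 2 cells farthest from the median of Slc26a5. The share of all genes was then 3.61%, 2.29% and 5.87%, from 6.17%. Members at -0.3 or less numbered 1 by Pearson correlation of log2(CPM + 1), and 2, 0 and 1 under those 3 settings, with 6.25%, 4.54%, 2.03% and 6.97% of all genes, from 6.80%. With Slc17a8, members at 0.3 or more numbered 1 by Pearson correlation with a pseudocount of 1 or 10, 1 after the mitochondrial correction, 0 after the ribosomal correction and 1 without the cells with a rare marker, with 2.53%, 2.40%, 1.37%, 1.43% and 3.13% of all genes, from 2.36%. Members at -0.3 or less numbered 0 after the mitochondrial or total count correction, 1 after the ribosomal correction and 0 without the cells with a rare marker, with 1.35%, 2.52%, 1.88% and 3.23% of all genes, from 2.91%. The cause of these shifts was not tested. In CPM, 1 count is at most 0.0907, and counts include PCR copies. With the total count, the mean rank of the pump genes had a rank correlation of 0.35 and their summed CPM one of 0.46. The part of depth in detection and in the correlations was not tested. No paired analysis was possible because there is 1 group and the numbers only name cells.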

Other observations

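Genes of the wider lysosomal pathway varied in how widely they were detected. Among sorting receptors, M6pr, the small mannose 6-phosphate receptor, was at 10 CPM or more in 57 cells with a median of 141 CPM, and Sort1, a sorting receptor for prosaposin, in 53. Of the hydrolases and cofactors, Psap, the precursor of the saposins, was detected in 69 cells with a median of 126 CPM, and Lgmn in 69 with a median of 214 CPM, while Lipa, the acid lipase, was detected in 0 cells. Of the membrane proteins, Laptm4b was detected in 72 cells with a median of 290 CPM, and Cd63 and Cd68, which mark lysosomes of many other cells, in 3 and 7. For pump assembly, Dmxl2 was detected in all 73 cells with a median of 442 CPM and its partner Wdr7 in 71 with a median of 209 CPM. These genes come from lists chosen with earlier results known and were named after their values were seen.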
